A study of Homo sapiens with 9 samples.

Results

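The 10 genes described here encode enzymes and partner proteins of the methionine cycle, of its branch into cysteine and of 2 reactions that use its products. They were listed by name, with earlier results of these data known, as MTR, MTRR, MAT2A, MAT2B, AHCY, AHCYL1, CBS, CTH, MTAP and NNMT, and are 10 of the 23727 genes in the deposited count table. All 10 had counts in every library and passed the filter on low counts, which left 15273 genes. The RNA came from LN229, a human glioblastoma cell line in long use, whose name a source label spells LN299, and was read by mRNA sequencing. The cells grew in DMEM medium supplemented with glucose, glutamine and fetal bovine serum, and sodium formate, the salt of formic acid, was the only agent. An untreated group was taken at 0 h, and the other groups were taken 8 h and 24 h after 500 µM formate was added. Each group held 3 libraries, numbered 1 to 3. No untreated library was taken at 8 h or 24 h, so formate and time in culture cannot be told apart. All groups come from a single cell line, and the labels do not say whether the replicates of a group were separate cultures. The p-values therefore measure the spread between these libraries, which may be technical.

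In the methionine cycle, methionine is joined to ATP to form S-adenosylmethionine (SAM), the methyl donor of most methylation reactions. Each methyl transfer leaves S-adenosylhomocysteine, which is hydrolysed to homocysteine. Homocysteine is either methylated back to methionine with a methyl group carried by folate, or enters transsulfuration, which makes cysteine. Formate is a source of the carbon units that folate carries. Glioblastomas often lose MTAP, the salvage enzyme of the cycle, together with its neighbour CDKN2A.

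Sequence just upstream of the first annotated exon is shown for 3 genes that rose at 24 h in the fit paired by replicate number, described further on, and for MAT2A, with the highest mean level per length of the set, which did not pass. The windows are RefSeq promoters of GRCh38.p14, written 5′ to 3′, with capitals marking the CCAAT box and the GC box (GGGCGG) in either orientation; the marked matches do not overlap.
MTR, chr1:236795031-236795280, plus strand: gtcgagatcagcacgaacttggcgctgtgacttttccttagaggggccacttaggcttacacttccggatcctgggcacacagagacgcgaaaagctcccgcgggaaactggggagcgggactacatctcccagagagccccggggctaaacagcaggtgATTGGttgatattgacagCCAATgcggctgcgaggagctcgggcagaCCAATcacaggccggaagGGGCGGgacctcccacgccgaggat
CTH, chr1:70411018-70411217, plus strand: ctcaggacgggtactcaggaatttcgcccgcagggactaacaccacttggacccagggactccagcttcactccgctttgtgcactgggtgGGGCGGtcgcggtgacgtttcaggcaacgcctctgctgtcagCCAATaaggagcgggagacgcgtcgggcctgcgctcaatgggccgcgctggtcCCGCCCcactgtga
MTAP, chr9:21802386-21802542, plus strand: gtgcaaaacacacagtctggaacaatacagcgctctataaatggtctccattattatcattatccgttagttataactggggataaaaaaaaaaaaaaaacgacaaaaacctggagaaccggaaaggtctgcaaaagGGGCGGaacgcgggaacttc
MAT2A, chr2:85538918-85539164, plus strand: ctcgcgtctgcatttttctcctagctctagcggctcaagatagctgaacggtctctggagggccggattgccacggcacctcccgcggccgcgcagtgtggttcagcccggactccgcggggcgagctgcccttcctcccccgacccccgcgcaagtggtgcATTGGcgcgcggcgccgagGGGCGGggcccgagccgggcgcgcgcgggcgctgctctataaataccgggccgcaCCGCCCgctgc
RefSeq entries were matched for 8 of the 10 genes, 16 entries in all. MTRR and NNMT had no match. Motifs were searched on both strands of the 250 bases before each start. The CCAAT box was found 3 times in the window of MTR and once each in those of CTH, MTAP and MAT2A, and it was present in 32% of all 35093 windows. The GC box, GGGCGG, was found once for MTR and 2 times each for CTH, MTAP and MAT2A, against 42.63% of windows with at least a single match. Part of the MTAP window lies in an annotated exon and is not shown, including its CCAAT match and 1 of its GC box matches. No window of the 8 genes held the E-box letters CACGTG, found in 6.343% of all windows. None held the composite element TGATGCAA, bound by C/EBP and ATF factors, found in 0.7722% of all windows. An AHCYL1 window held the cyclic AMP response element TGACGTCA, as did 1.647% of all windows.

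The levels of the 10 genes spanned a wide range, and the order is given per length of exon, as RPKM (counts scaled to library size and per kilobase of exon, with GENCODE exon lengths). MAT2A, the catalytic subunit that makes SAM in most tissues, had a mean of 78.2 RPKM over the 9 libraries. AHCY, the hydrolase that removes S-adenosylhomocysteine, had 74.1 RPKM, and the ranges of these genes overlapped. AHCYL1 followed at 46.3 RPKM and MAT2B at 15.3 RPKM, each apart from its neighbours in the order. MTRR at 8.98, MTR at 8.17 and MTAP at 7.40 RPKM overlapped from one to the next. NNMT at 1.65 and CTH at 1.64 RPKM could not be ordered, and CBS was lowest at 0.228 RPKM. The level and rank of CBS are uncertain, as 54.5% of its transcript stretches of 50 bases also occur in its near-identical copy CBSL. Among all tested genes by CPM (counts relative to library size, corrected for composition), MAT2A stood at the 97.1 percentile, MTAP at 85.5, NNMT at 28.2, CTH at 26.3 and CBS at 17.6.

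**Figure D1:**
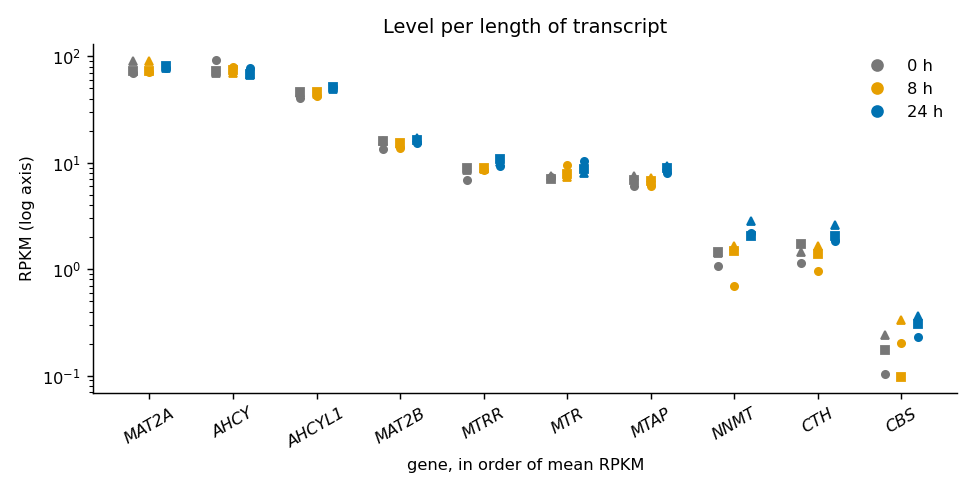
Expression of the 10 genes per exon length, as RPKM on a log axis, with a point for each of the 9 libraries coloured by group. SAM synthesis and hydrolase genes MAT2A and AHCY sit at the top, with means of 78.2 and 74.1 RPKM, and CBS at the bottom with 0.228 RPKM. The CBS level is uncertain because of its near-identical copy CBSL.

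At 24 h, 9 of the 10 genes had a higher fitted mean than the untreated libraries and AHCY a lower one. The median log2 fold change of the 10 was 0.31, beside 0.0071 over all tested genes, of which 50.9% were positive. None of the 10 reached an adjusted p of 0.05 in edgeR's quasi-likelihood test with groups alone, where 4.25% of all genes did (649 genes). Of them, 6 had an unadjusted p under 0.05, as did 26.4% of all genes. DESeq2 called 2, MTAP and NNMT, beside 10.9% of the genes it gave an adjusted p (1594). Without replicate 2 or without replicate 3 of 24 h, that edgeR fit called 0 genes in the whole table. Replicates with the same number deviated together between 0 h and 24 h (correlation of 0.164 to 0.367 across genes), although a pair of unequal numbers reached 0.270. With the number as a block 5 genes passed, all higher: MTR, MTRR, CTH, MTAP and NNMT. In the blocked fit 24.1% of all genes were called and 12.6% were called higher. The 24 h replicates lay wholly above the untreated ones for 6 genes (the same 5 and AHCYL1), as they did for 15.9% of all genes.

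**Figure D2:**
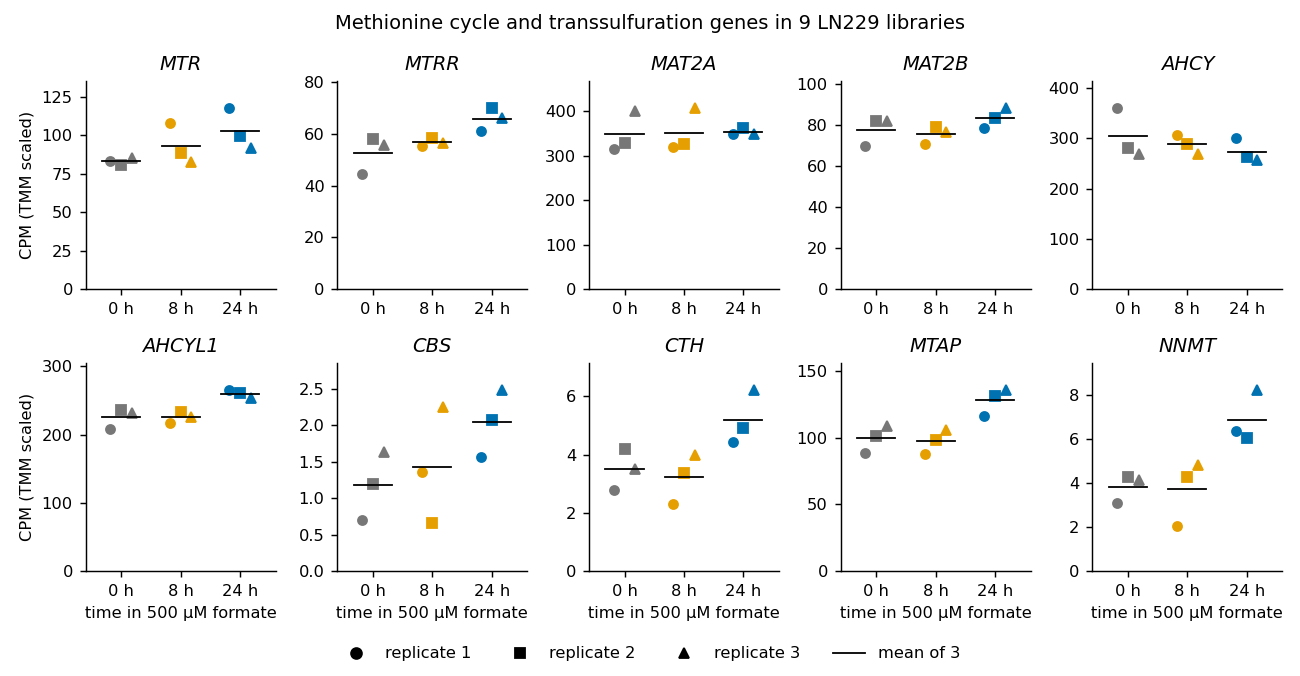
CPM of each of the 10 genes in untreated cells and after 8 h and 24 h of 500 µM formate, with a symbol for each replicate and a horizontal line for the group mean. The 24 h points of MTR, MTRR, AHCYL1, CTH, MTAP and NNMT lie above all untreated points.

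MTR, methionine synthase, transfers the folate-borne methyl group to homocysteine by way of cobalamin. It was measured at 82.9, 80.5 and 85.2 CPM in untreated replicates 1, 2 and 3, at 108, 88.7 and 82.8 CPM at 8 h, and at 117, 99.1 and 91.4 CPM at 24 h. Every 24 h value was above every untreated value, and replicate 1 was the highest of both formate groups. The 24 h mean was 103 ± 13.4 CPM (SD, n = 3), 1.24-fold above the untreated mean of 82.9 ± 2.36 CPM (SD, n = 3). In edgeR the log2 fold change was 0.31 (SE 0.12, adjusted p = 0.145) without the block and 0.30 (SE 0.092, adjusted p = 0.0384) with it. That call held in 1 of 9 blocked fits that each left out a library, the one without untreated replicate 3. MTR spans chr1:236795281-236903981 on the plus strand (GENCODE 29, GRCh38).

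MTRR restores the cobalamin of methionine synthase when it becomes oxidised. It stood at 44.6, 57.8 and 55.6 CPM in untreated cells, at 55.4, 58.2 and 56.6 CPM at 8 h, and at 60.9, 69.9 and 66.0 CPM at 24 h. The lowest 24 h library was above the highest untreated one, and untreated replicate 1 stood below the other two. The log2 fold change was 0.32 (SE 0.11, edgeR adjusted p = 0.111) without the block and 0.32 (SE 0.086, adjusted p = 0.0202) with it. Without untreated replicate 1 the unblocked value was 0.19. The blocked call was lost without untreated replicate 2 and without each 24 h replicate in turn, and held in the other 5 fits. In the annotation, 6.23% of MTRR exon bases on chr5:7851186-7906025 are overlapped by genes of the opposite strand.

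No change was detected in the genes of SAM synthesis. MAT2A was at 314, 328 and 401 CPM in untreated cells, at 320.5, 326 and 407 CPM at 8 h, and at 348, 363 and 349.6 CPM at 24 h. Replicate 3 was high in the first 2 groups and not in the last, and the groups overlapped throughout. The log2 fold change at 24 h was 0.02, with a 95% interval from -0.26 to 0.31 (edgeR adjusted p = 0.917). MAT2B, the regulatory subunit, was at 69.8, 81.9 and 82.2 CPM untreated, 70.6, 79.3 and 76.9 CPM at 8 h, and 78.7, 83.7 and 88.3 CPM at 24 h. Its groups overlapped, and its log2 fold change at 24 h was 0.10 with a 95% interval from -0.11 to 0.32 (edgeR adjusted p = 0.523). GGCX on the opposite strand overlaps 12.4% of the exon bases of MAT2A on chr2:85539165-85545280, and the strand setting of the counts is not given in the sources used here. No gene overlaps the exons of MAT2B on chr5:163503114-163519336. MAT1A, the liver enzyme for the same step, had 0 to 8 counts per library.

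AHCY was the 1 gene of the set with a lower mean at 24 h. Its values were 360.0, 282 and 269 CPM untreated, 307, 288 and 268 CPM at 8 h, and 301, 262 and 258 CPM at 24 h. Replicate 1 was the highest in each group and the groups overlapped. Each same-numbered pair was lower at 24 h, and the log2 fold change was -0.15 with a 95% interval from -0.43 to 0.13 (edgeR adjusted p = 0.462). Without untreated replicate 1 it was -0.028. AHCY lies on chr20:34280268-34311802, minus strand, and AHCYL1 on chr1:109984686-110023741, plus strand. AHCYL1, an AHCY-like protein also known as IRBIT that binds the inositol trisphosphate receptor, was at 208, 236 and 231 CPM untreated, 217, 233 and 226 CPM at 8 h, and 265, 262 and 253 CPM at 24 h. All 24 h values exceeded all others, with the narrowest spread at 24 h (260.0 ± 6.33 CPM, SD, n = 3). The log2 fold change of 0.21 (SE 0.093) did not pass in edgeR with the block (adjusted p = 0.0740) or without it (adjusted p = 0.184).

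CBS and CTH carry out the successive steps of transsulfuration, from homocysteine to cystathionine and on to cysteine. CTH, cystathionine gamma-lyase, was at 2.78, 4.2 and 3.50 CPM untreated, 2.32, 3.37 and 4.0 CPM at 8 h, and 4.44, 4.92 and 6.22 CPM at 24 h. In CPM every 24 h library was above every earlier one. The raw counts, 105 to 150 at 24 h and 51 to 109 before, overlapped. Its log2 fold change was 0.57 (SE 0.24, edgeR adjusted p = 0.159) without the block and 0.57 (SE 0.17, adjusted p = 0.0298) with it, a fold of 1.48. CTH lies on chr1:70411218-70439851, plus strand. The blocked call was lost without untreated replicate 3, without replicate 1 of 24 h and without replicate 3 of 24 h.

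CBS, cystathionine beta-synthase, was at 0.71, 1.19 and 1.64 CPM untreated, 1.36, 0.66 and 2.25 CPM at 8 h, and 1.56, 2.07 and 2.49 CPM at 24 h. The gene lies on chr21:43053191-43076943, minus strand. These values rest on 15 to 60 counts per library, and the groups overlapped. The log2 fold change of 0.78 (SE 0.41) at 24 h did not pass in edgeR without the block (adjusted p = 0.238) or with it (adjusted p = 0.0723), although all 3 same-numbered pairs were higher. Of the 7048 stretches of 50 bases in annotated CBS transcripts, 54.5% also occur in CBSL, a near-identical copy on chromosome 21. CBSL had no entry in the count table, and the CBS counts are uncertain because of the shared sequence.

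MTAP, which cleaves the methylthioadenosine left by polyamine synthesis and so returns its methionine, had the smallest p of the 10 genes. It was at 88.7, 101 and 109 CPM in untreated replicates, at 87.7, 98.3 and 106 CPM at 8 h, and at 116, 131 and 136 CPM at 24 h. Replicate 1 was the lowest and replicate 3 the highest in each group, and all 24 h values were above all others. The same-numbered pairs differed by 0.39, 0.38 and 0.32 on the log2 CPM scale (prior count 2) at 24 h, and by -0.017, -0.038 and -0.040 at 8 h. The log2 fold change at 24 h was 0.36 (SE 0.11, edgeR adjusted p = 0.0814) without the block and 0.36 (SE 0.073, adjusted p = 0.00498) with it, a fold of 1.29. With the block it passed in all 9 fits that each left out a library, from 0.34 to 0.38, with adjusted p at most 0.0383. Between 24 h and 8 h the unblocked log2 fold change was 0.39 (edgeR adjusted p = 0.0654).

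The MTAP gene lies on chr9:21802543-21937651, plus strand, beside CDKN2A and CDKN2B, the cell cycle inhibitors of the same region. Other annotated genes overlap 7.83% of its exon bases on the same strand and 1.76% on the opposite strand. MTAP had 1881 to 3273 counts per library. CDKN2A had 1 count in untreated replicate 1 and 0 in the other 8 libraries, and CDKN2B had 1 count in untreated replicate 3 and 0 elsewhere. A count of 0 allows up to 3 counts, 0.116 to 0.141 CPM in these libraries, for counting error only. The other listed genes of the region were read in all libraries: KLHL9 at 1217 to 2045 counts, FOCAD at 1287 to 1837 and DMRTA1 at 227 to 360. IFNE was far lower, at 15 to 39 counts. Of the 4 tested neighbours, none was called at 24 h by edgeR with or without the block, and their median log2 fold change was 0.10.

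NNMT, which spends SAM to methylate nicotinamide, had the largest fitted change of the 10 genes. It was at 3.11, 4.27 and 4.16 CPM untreated, 2.04, 4.29 and 4.85 CPM at 8 h, and 6.39, 6.04 and 8.25 CPM at 24 h. Every 24 h library exceeded every other library, while the 8 h values spread on both sides of the untreated ones. The mean went from 3.85 ± 0.641 to 6.89 ± 1.19 CPM (SD, n = 3 each). In edgeR its log2 fold change was 0.84 (SE 0.28, adjusted p = 0.0964) without the block and 0.85 (SE 0.20, adjusted p = 0.0105) with it, a fold of 1.79. With the block it passed in all 9 fits without a library, from 0.65 to 1.04, with adjusted p at most 0.0491. Counts ran from 45 to 199 per library, and no gene overlaps the exons of NNMT on chr11:114257787-114313285.

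**Figure D3:**
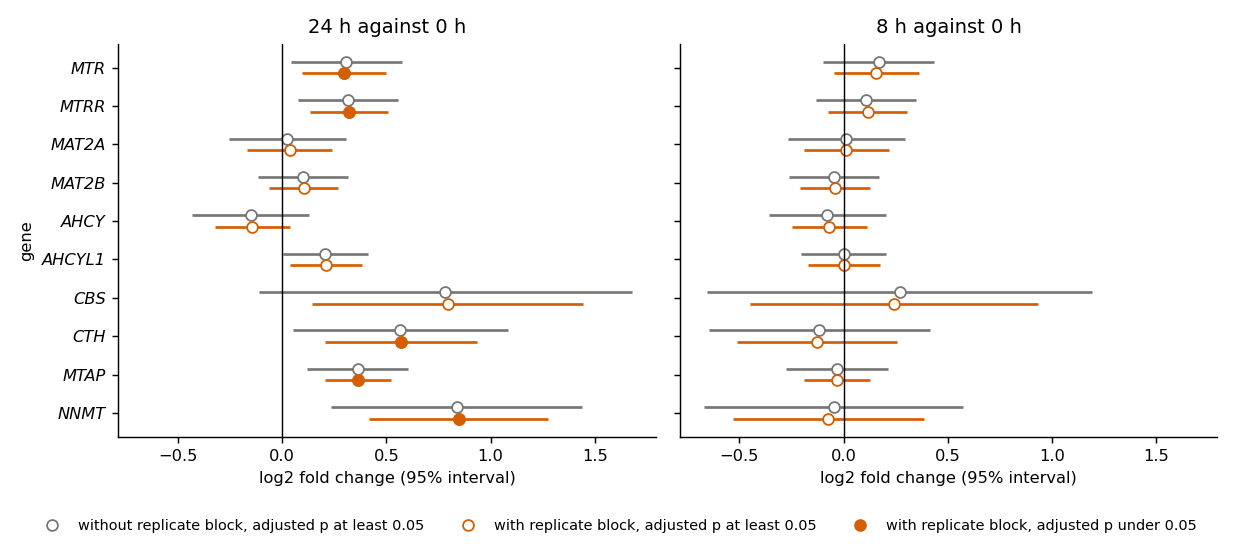
Fitted log2 fold changes of the 10 genes with 95% intervals at 24 h and at 8 h against 0 h, without and with the replicate number as a block, where filled points have an adjusted p under 0.05. Among the points without the block, NNMT is farthest right at 0.84 and AHCY is at -0.15 at 24 h against 0 h. At 8 h the points without the block lie between -0.12 and 0.27.

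No difference was detected at 8 h. Of the 10 genes, 5 were fitted higher and 5 lower than untreated, from -0.12 to 0.27 with a median of -0.016. None was called by edgeR, all with an adjusted p of 0.9999, and none had an unadjusted p under 0.05. The test called 0.00% of all genes, 79 genes (0.517% of all genes) had an unadjusted p under 0.05, and DESeq2 called 0. Without any change, a calibrated test would put a share of genes near the cutoff of 0.05 itself below it. The share here was far smaller, so the test was conservative at 8 h and the lack of calls is weak evidence of no change. No gene of the set had groups that did not overlap, as 3.31% of all genes did. The 10 genes at 24 h against 8 h ran from -0.073 (AHCY) to 0.88 (NNMT), with 9 higher. Again edgeR called none without the block, against 4.56% of all genes (696), and 4 (AHCYL1, CTH, MTAP and NNMT) had an unadjusted p under 0.05, as did 22.8% of all genes. Without replicate 1 of 8 h, replicate 2 of 24 h or replicate 3 of 24 h, that fit called 0 genes in the whole table. DESeq2 called MTAP and NNMT, beside 9.40% of the genes it gave an adjusted p (1412). The 24 h replicates lay above the 8 h replicates for MTRR, AHCYL1, CTH, MTAP and NNMT, as for 18.2% of all genes. The comparisons with 0 h share the untreated libraries, and both comparisons of 24 h share its libraries.

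**Figure D4:**
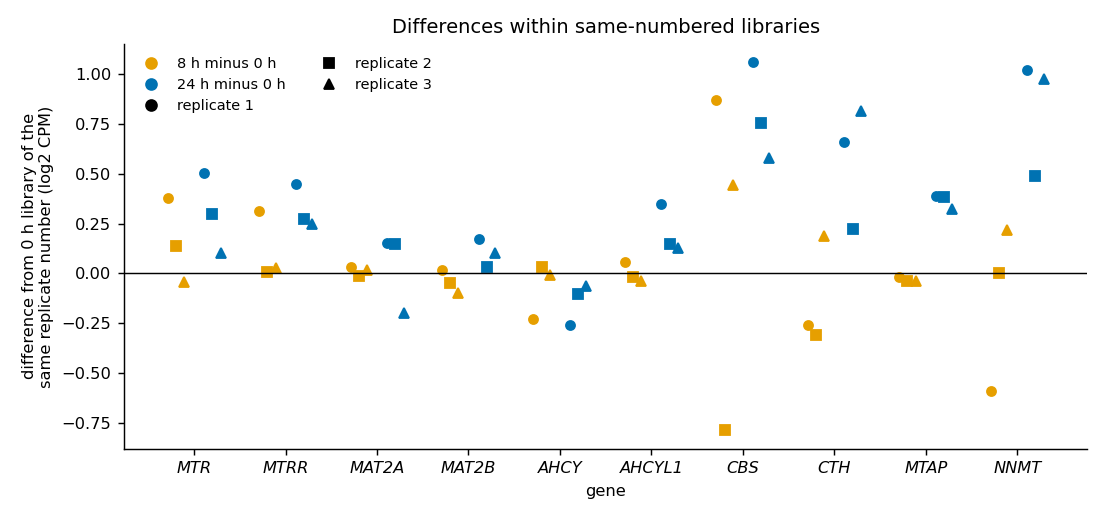
Log2 CPM differences from the untreated library of the same replicate number, for each of the 10 genes at 8 h and at 24 h, with a point per pair. MTAP lies between -0.040 and -0.017 at 8 h and between 0.32 and 0.39 at 24 h, and AHCY is below 0 in all 3 pairs at 24 h.

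Libraries numbered 1 were often at the edge of their group. Untreated replicate 1 was the lowest of its group for 8 of the 10 genes, replicate 1 of 8 h for 7 and replicate 1 of 24 h for 6. Total counts per library lay between 22222298 and 25848242. TMM factors, which scale libraries for composition, ran from 0.920 in untreated replicate 1 to 1.06. Markers of dividing cells fell at 24 h: 6 of 10 G2 and M phase genes passed in edgeR without the block and 8 with it, all lower. Of all tested genes, 4.25% passed without the block and 24.1% with it. CCNB1, CDC20 and PLK1, which drive mitosis, had log2 fold changes of -0.91, -0.90 and -0.83 (adjusted p = 0.0215, 0.0267 and 0.0267 without the block). The summed level of these markers was 3956 to 4400 CPM untreated, 3859 to 4747 CPM at 8 h and 2348 to 3478 CPM at 24 h. Of 9 markers of other cell types with an entry, 5 passed the filter on low counts. The leukocyte gene PTPRC had 1 to 3 counts per library, and CD68 and PECAM1 0 to 3, while the epithelial keratin KRT18 had 2073 to 3911 and the neuronal gene SYT1 668 to 1053. None of the 5 was called at 24 h without the block. With it DCN (log2 fold change 0.71, adjusted p = 0.00526) and PDGFRB (0.69, adjusted p = 0.00713), genes of mesenchymal cells, rose and KRT18 fell (-0.55, adjusted p = 0.00333). COL1A1, also a gene of mesenchymal cells, was fitted lower with the block and not called (-0.48, adjusted p = 0.0643). The summed level of the 9 was 175 to 227 CPM untreated, 179 to 189 CPM at 8 h and 140 to 159 CPM at 24 h. Of the glial markers, SOX2 had 1522 to 2417 counts and GFAP 3 to 10. The glial genes FABP7 (log2 fold change 1.25, adjusted p = 0.0167) and S100B (1.38, adjusted p = 0.0460) rose at 24 h in edgeR without the block, and none of the 9 tested glial genes fell. With the block 3 rose and 2 fell, CD44 (-0.37, adjusted p = 0.00690) and VIM (-0.45, adjusted p = 0.00858), and the median of the 9 without the block was 0.022. As for all unblocked calls at 24 h, the calls of FABP7, S100B and the G2 and M phase genes ended without replicate 2 or without replicate 3 of 24 h. The part of these shifts in the values of the methionine cycle genes was not tested. In bulk RNA, fewer cells of a kind and less RNA per cell cannot be told apart.

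Around the methionine cycle, 2 lists held genes that fell at 24 h in edgeR without the block. Over all genes 4.25% were called without the block and 24.1% with it. In methionine salvage and polyamine synthesis, the steps after and before MTAP, 2 of 12 tested genes fell and 0 rose. ODC1, the ornithine decarboxylase that opens polyamine synthesis, fell by 0.82 on the log2 scale (SE 0.19, adjusted p = 0.0352), from a mean of 213 to 120.5 CPM. SMS, spermine synthase, fell by 0.79 (SE 0.18, adjusted p = 0.0352), from 193 to 112 CPM. With the block 4 of the 12 fell and 2 rose, among them SAT1, the enzyme that acetylates polyamines for export or breakdown (log2 fold change 0.61, adjusted p = 0.00575). The median of the 12 was -0.069. Of 5 tested genes in the list of SAM sensing, SAM transport and MAT2A regulation, PRMT5 fell and none rose. PRMT5, an arginine methyltransferase, fell by 0.45 (SE 0.10, edgeR adjusted p = 0.0344), and with the block its partner WDR77 also fell (log2 fold change -0.41, adjusted p = 0.0146). These calls without the block ended when replicate 2 or replicate 3 of 24 h was left out, since no gene then passed. The median of the 5 was -0.12, and METTL16, which controls the splicing of MAT2A, had a log2 fold change of -0.12 (adjusted p = 0.504).

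The other lists of metabolic genes had no call without the block. With it 24.1% of all genes were called and 12.6% were called higher, the background for the counts that follow. In cobalamin handling, 3 of 8 tested genes rose and none fell with the block: MMAB, an adenosyltransferase (log2 fold change 0.49, adjusted p = 0.0213), MMUT, the methylmalonyl-CoA mutase (0.33, adjusted p = 0.0226), and LMBRD1, a lysosomal cobalamin exporter (0.31, adjusted p = 0.0182). The median of the 8 without the block was 0.049. In the list of nicotinamide and NAD metabolism, 3 of 9 rose and 1 fell with the block. AOX1, an oxidase of methylated nicotinamide, had a blocked log2 fold change of -1.51 (adjusted p = 0.000871). It rested on 16 to 147 counts per library, and replicate 1 was the highest in each group. QPRT, an enzyme of NAD synthesis from tryptophan, had a blocked value of 1.29 (adjusted p = 0.00978) on 11 to 43 counts per library. For NMNAT2 the blocked value was 0.57 (adjusted p = 0.0164). Of 11 genes of cysteine, glutathione and sulfide metabolism, CSAD, which acts in taurine synthesis, rose (0.50, adjusted p = 0.00761) and GCLM, a subunit of the enzyme that opens glutathione synthesis, fell (-0.46, adjusted p = 0.00991) with the block. Of 6 small molecule methyltransferases, TPMT rose (0.42, adjusted p = 0.00767) and PEMT, which makes phosphatidylcholine with SAM, fell (-0.39, adjusted p = 0.0346) with the block. None of 8 methionine and neutral amino acid transporters passed in either fit.

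Among 3 tested neighbours of the cycle, ADK, the kinase that clears the adenosine released by AHCY, fell with the block (log2 fold change -0.51, edgeR adjusted p = 0.00347) and not without it (-0.54, adjusted p = 0.133). BHMT, which methylates homocysteine with betaine, had no entry in the count table.

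The genes most like MTAP over the 9 libraries, among 10839 with a symbol and a mean of at least 5 CPM, were MOV10 (Pearson r = 0.994 of log2 CPM), ACSF2 (0.993) and OSBPL5 (0.991). MOV10 went from a mean of 52.6 CPM untreated and 52.5 at 8 h to 76.6 CPM at 24 h. For NNMT they were SNHG18 (0.986), UXS1 (0.981) and HLA-DPA1 (0.980). These values describe likeness across libraries that share the same 3 groups, and carry no test.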

How the data were processed

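RNA of 9 LN229 libraries was sequenced after a stranded mRNA preparation, per the labels' protocols. The authors deposited 1 table of raw counts per Ensembl gene. Per the submitters' processing notes, bcl2fastq 2.20.0.422, STAR 2.7.4a and GRCh38 were used; the counting program, its annotation and its strand setting are not given in the sources used here. Groups and replicate numbers came from the titles. Genes were filtered with filterByExpr and scaled with TMM, and edgeR 4.0.16 (R 4.3.3) fitted 1 mean per group over all 9 libraries. The quasi-likelihood test was two-sided, with Benjamini-Hochberg adjustment over all 15273 tested genes and a threshold of 0.05. CPM uses TMM-scaled library sizes, and RPKM divides it by merged exon length in GENCODE 29, which held 98.0% of the genes. The fits were also run on simulated data. No result of those runs is given here, so they do not show whether changes of the size and spread seen here would be detected. A count of 0 is read as allowing 3 counts.

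Replicate numbers were checked from the correlation across genes of deviations from the group means. For equal numbers r was 0.414 to 0.476 between 0 h and 8 h, 0.164 to 0.367 between 0 h and 24 h and 0.0367 to 0.423 between 8 h and 24 h. Over all group pairs the mean r was 0.330 for equal and -0.158 for unequal numbers. Deviations from a group mean cancel within the group, so the unequal mean largely follows from the equal one and is not separate evidence. Untreated replicate 3 and replicate 2 of 24 h reached 0.270, above the equal-number values of replicates 2 and 3 (0.164 and 0.251). The pairing of 0 h with 24 h is therefore uncertain, and all calls with the block depend on it. The titles' numbers were taken to pair 0 h with 8 h and 24 h, and the blocked fit is given there. Its block covers all 9 libraries, so it also ties 8 h to 24 h by number, where the smallest r was 0.0367.

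Alternatives were DESeq2 1.42.0, its size factors in edgeR (RLE), no filter, the replicate block, only the groups compared, and each library left out. Beside the 10 members, 12 gene lists with 115 entries were used, 106 of them in the table. All 10 members are named; of each other list, up to 3 genes that passed at 24 h against 0 h in either fit, by smallest p, with BHMT, MAT1A, CBSL, CDKN2A and CDKN2B in any case; 1 further gene of that rule is not reported here. Likeness was ranked for the 2 members with the smallest p. METTL16, VIM, SYT1, COL1A1, PTPRC, CD68, PECAM1, SOX2, GFAP, KLHL9, FOCAD, DMRTA1 and IFNE were named in addition, after their values were seen. Members and lists were chosen with earlier results of these data known.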

Additional observations from a re-analysis of the deposited data

Results flagged for a closer look

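MTAP was lower at 8 h and higher at 24 h than at 0 h in all 3 same-numbered pairs. The mean log2 CPM difference over the pairs was -0.031 at 8 h and 0.36 at 24 h. This contrast of directions over the pairs was not tested. The direct comparison of 24 h with 8 h gave a log2 fold change of 0.39 (edgeR adjusted p = 0.0654) without the block. The 8 h differences are close to 0, and both times are set against the same untreated libraries.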

How the results depend on the processing

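Each comparison of a gene was refitted under 14 alternatives, 140 refits for the 10 genes per comparison. At 24 h against 0 h, 129 kept direction and side of the threshold, 8 gained a call and 3 reversed. At 24 h against 8 h, 124 kept both, 9 gained a call and 7 reversed. At 8 h against 0 h, 123 kept both and 17 reversed. Reversals at 24 h concerned MAT2A alone, whose log2 fold change lay from -0.062 to 0.14 against 0 h and from -0.067 to 0.12 against 8 h over fits without a library, and against 8 h was -0.0034 with RLE and -0.0079 with DESeq2. At 8 h, fits without a library gave -0.14 to 0.060 for AHCY, -0.056 to 0.035 for AHCYL1, -0.23 to 0.61 for CBS, -0.29 to 0.079 for CTH, -0.095 to 0.14 for MAT2A, -0.12 to 0.010 for MAT2B, -0.11 to 0.048 for MTAP, -0.0022 to 0.18 for MTRR and -0.27 to 0.25 for NNMT. The genes called at 24 h against 0 h were 649, 1594 with DESeq2, 3687 with the replicate block, 124 with only the groups compared and 0 to 899 without a library. Of the 10 genes these called 0, 2, 5, 0 and 0 to 1; with the replicate block and without a library, 2 to 5 of the 10 and 2213 to 3816 of all genes. At 24 h against 8 h the calls were 696, 1412 with DESeq2, 3130 with the replicate block, 1787 with only the groups compared and 0 to 2545 without a library, and of the 10 genes 0, 2, 3, 1 and 0 to 2. The 8 h and 24 h libraries are not paired by the rule used, as the smallest correlation of equal numbers was 0.0367. The block still ties them by number, so the blocked calls in both comparisons of 24 h also rest on that pairing. RLE and no filter changed no count by over 1.5 times, and no alternative called any gene at 8 h. The cause was not tested. The fits with the block that leave out a library were chosen after seeing the data. Depth limits CBS, with 15 to 60 counts per library, and CTH and NNMT more than the others.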
